A study of Mus musculus with 7 samples.

Results

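Fibroblast growth factors (FGFs) are secreted ligands that bind receptor tyrosine kinases together with heparan sulfate and signal through the RAS-ERK cascade. In the developing kidney, FGF signals keep nephron progenitors alive, let newly formed nephrons survive, and drive branching of the ureteric tree. The genes described here are 5 ligand genes, Fgf1, Fgf7, Fgf8, Fgf9 and Fgf10, and 5 receptor genes, Fgfr1, Fgfr2, Fgfr3, Fgfr4 and Fgfrl1. They were chosen by name from the 16167 genes of the deposited table, and all 10 were found in it.

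RNA-seq was done on whole embryonic mouse kidneys at E15.5 in 7 libraries. By their titles, the 4 mutant libraries carried Six2-Cre together with Irx3/5(loxP/loxP), and the 3 control libraries were Irx3/5(loxP/+), littermates according to the design text. Both groups thus carried floxed alleles of the Iroquois homeobox genes Irx3 and Irx5, and the Cre, which is active in nephron progenitors and their descendants, is named for the mutants only. What the Cre transgene does by itself and what the deletion does cannot be told apart. Since the number of embryos behind each library is not stated, the p-values refer only to the spread among these 7 samples, part of which may be technical.

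Reads in the listed genes came to 40511920 to 69028943 per library. Irx3 was at 12.7 to 14.7 FPKM (fragments scaled to gene length and library depth) in the controls and at 3.98 to 6.75 FPKM in the mutants, without overlap. Irx5 was at 1.36 to 1.59 FPKM in the controls and at 0.895 to 2.05 FPKM in the mutants, with overlap. The removed part of either gene is not stated, so gene-level values need not show the deletion. Six3 was listed at 0.016 to 0.067 FPKM in the controls and 4.37 to 5.41 FPKM in the mutants. Six2, which marks nephron progenitors, was present in every library (28.9 to 62.8 FPKM), as were the ureteric marker Ret (7.88 to 14.6 FPKM) and the stromal marker Foxd1 (6.61 to 11 FPKM). Control replicate 1 stood apart in skeletal muscle genes, with a summed level of 50.1 FPKM for the 3 marker genes listed against 2.92 to 4.72 FPKM in the other 6 libraries. Mutant replicate 1 held the lowest value of the 7 libraries for 25% of the 13466 genes tested and the highest for 20.7%. The share of embryonic Hbb-y relative to adult Hbb-bs, which drops as embryos age, was 1.34% to 3.45% in controls, and it was 1.38%, 1.53%, 10.5% and 2.24% in mutant replicates 1 to 4. Levels below are FPKM, which are per length and can be set side by side between genes. Each fold change is the difference of group means of log2(FPKM + 1), mutants less controls, a scale that compresses changes at low levels. A gene is said to rise or fall when its limma adjusted p over all genes tested is under 0.05.

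Of the 10 genes, 9 reached the level needed for testing, which all 9 did in every library, and Fgf7 did not. Fgf1 fell and the other 8 did not pass, while 1.05% of all genes tested fell. Of the 9 genes, 8 had a fold change below 0 and 1 above, with a median of -0.27 on the log2 scale against -0.0020 over all genes tested. For 6 of them, Fgf1, Fgf8, Fgf9, Fgfr1, Fgfr3 and Fgfr4, all mutants lay below all controls, a pattern that 8.61% of the genes tested showed, and 0 had all mutants above all controls, against 5.93%. In the authors' deposited table of a DESeq2 comparison, 5 of the 10 were lower at an adjusted p under 0.05 (Fgf1, Fgf8, Fgfr1, Fgfr3 and Fgfr4) against 3.74% of all genes. The same deposited table has 1 higher (Fgf10) against 1.75%, so 6 in either direction against 5.49%. In limma-voom on recovered reads 2 were lower (Fgf1 and Fgf8) against 1.37% of all genes tested, and 0 higher, against 1.85% in either direction.

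**Figure D1:**
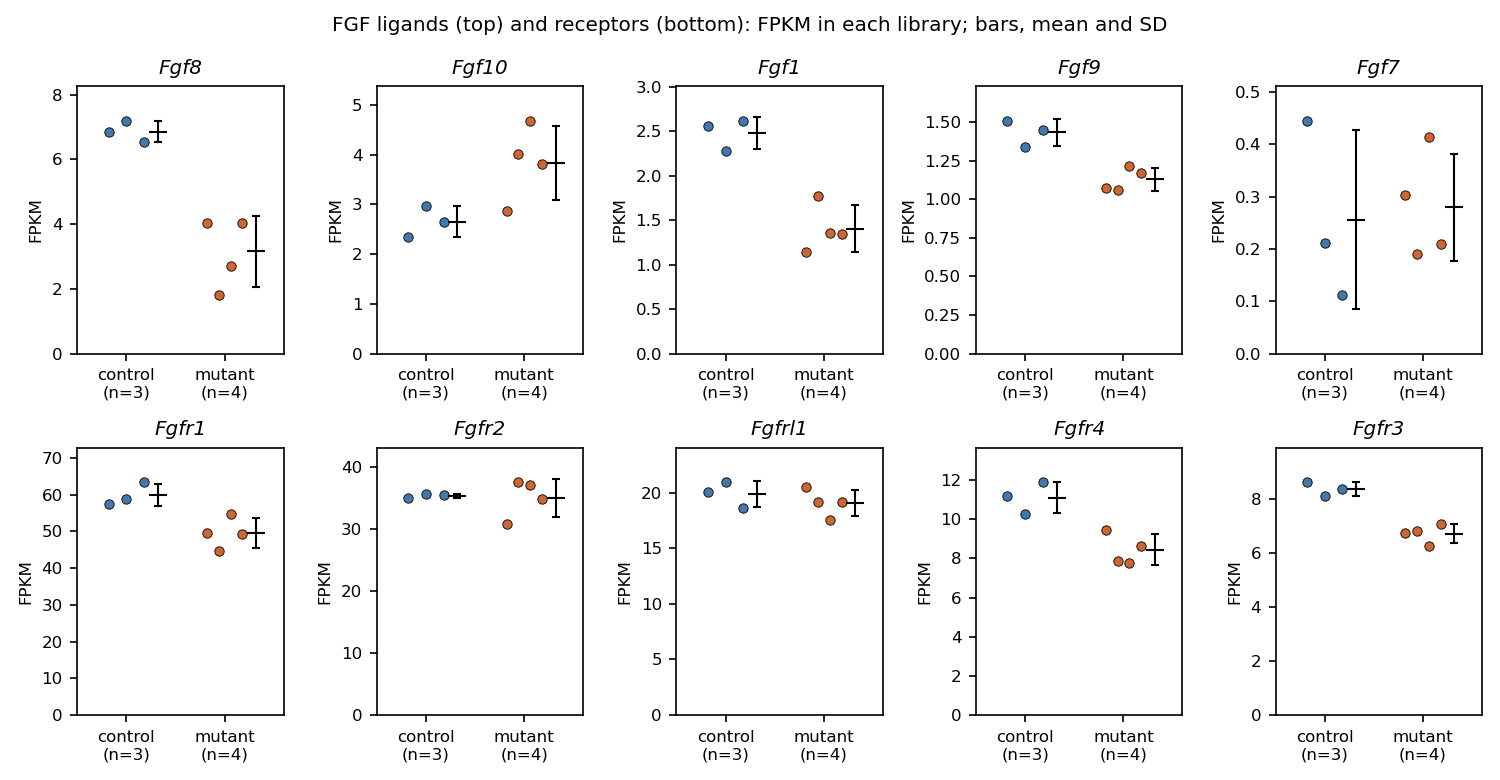
FPKM of each FGF gene in each library, with ligands in the top row and receptors in the bottom row, each panel on its own axis from 0; points are libraries (3 controls, 4 mutants) and bars give the mean and SD. The mutants of Fgf8, at 1.82 to 4.04 FPKM, all sit below the controls at 6.53 to 7.19, while Fgfr2 and Fgfrl1 overlap.

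Upstream sequence was at hand for 7 of the 10 genes from RefSeq on GRCm38.p6, an older build than that of the table; Fgf1, Fgf8 and Fgfr1 have no entry. It is shown for Fgfr3 and Fgfr4, the receptor genes with matched upstream sequence whose mutants all lay below the controls. Each run is the 250 bases before the annotated transcription start, 5′ to 3′ on the plus strand. Capitals mark CCGGAA, a core site of ETS factors such as Etv4 and Etv5, which act downstream of FGF and RET receptors. For Fgfr3 the window is that of the more upstream of 2 annotated starts.
Fgfr4, chr13:55152568-55152817: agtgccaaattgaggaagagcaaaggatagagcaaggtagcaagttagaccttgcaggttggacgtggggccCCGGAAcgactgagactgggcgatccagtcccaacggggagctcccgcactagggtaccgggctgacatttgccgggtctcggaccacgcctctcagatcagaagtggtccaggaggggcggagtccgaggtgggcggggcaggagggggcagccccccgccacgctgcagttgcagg
Fgfr3, chr5:33721474-33721723: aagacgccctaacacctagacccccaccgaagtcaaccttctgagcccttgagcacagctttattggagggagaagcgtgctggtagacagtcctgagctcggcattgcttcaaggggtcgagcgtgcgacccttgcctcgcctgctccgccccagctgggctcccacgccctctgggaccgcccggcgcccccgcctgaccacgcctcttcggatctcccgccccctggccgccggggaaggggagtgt
The 6 letters CCGGAA, or TTCCGG on the other strand, occur in 2 of the 8 windows of these genes (Fgfr4 and Fgfrl1) and in 12% of all 32851 windows of this length. The Iroquois core site ACANNTGT, which reads the same on both strands, occurs in 0 of the 8 windows and in 6.31% of all windows, so these letters are not in these stretches. Both printed windows are rich in G and C, 64.0% for Fgfr4 and 66.8% for Fgfr3, against a median of 52.4% over all windows.

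Fgf8 (ENSMUSG00000025219.14) encodes the ligand of the renal vesicle, where it is needed for nascent nephrons to survive and to keep Lhx1 expressed. It was the most abundant of the 5 ligand genes in every control library, with levels of 6.86, 7.19 and 6.53 FPKM. In mutant replicates 1 to 4 its levels were 4.04, 1.82, 2.72 and 4.04 FPKM. Every mutant lay below every control, and the mutants spread more widely, with replicate 2 lowest and replicates 1 and 4 highest. The ratio of mean levels was 0.46, from 6.86 ± 0.33 (SD, n = 3) to 3.16 ± 1.09 FPKM (SD, n = 4). This gave a log2 fold change of -0.96 (SE 0.20, 95% interval -1.41 to -0.51) that missed the threshold (limma adjusted p = 0.0609). An exact two-sided permutation of library labels gave p = 0.0286, the smallest these numbers of libraries allow.

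The call for Fgf8 depended on the test and was made in 4 of 17 alternatives, among them 1 of 7 omissions of a library. It passed in limma-voom on recovered reads (log2 fold change -1.18, SE 0.23, adjusted p = 0.0394) and with array weights (adjusted p = 0.0283). Without mutant replicate 1 it passed too (adjusted p = 0.0405). The authors' deposited table gives a log2 fold change of -1.12 (SE 0.26, adjusted p = 0.000757). Across all 17 alternatives the log2 fold change ran from -1.18 to -0.79 and the adjusted p from 0.000757 to 0.235. Counts behind these levels were 115 to 647 reads per library.

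Markers of the early nephron, where Fgf8 is made, are given beside it. Of 10 tested (Lhx1, Wnt4, Pax8, Jag1, Dll1, Ccnd1, Dkk1, Bmp2, Cdh6 and Lfng), 0 rose or fell by limma. At an unadjusted p under 0.05 there were 6, against 13.7% of all genes tested, and 9 of the 10 fold changes were below 0. In the authors' deposited table there were 3 lower, against 3.74% of all genes. The summed level of the 10 markers was 361 to 375 FPKM in controls and 324 to 373 FPKM in mutants. Fgf8 amounted to 1.90%, 1.96% and 1.74% of that sum in controls and to 1.23%, 0.561%, 0.800% and 1.08% in mutant replicates 1 to 4. The groups of this ratio, which was chosen after its values were seen, did not overlap. Ccnd1, with groups that overlapped, held 45.1% to 49.6% of the sum. Without it the other 9 markers summed to 197.5 to 201.7 FPKM in controls against 171 to 193 FPKM, without overlap, and Fgf8 amounted to 3.30% to 3.57% of that sum against 1.05% to 2.31%. Lfng, which modifies Notch, and the Notch ligand gene Dll1 had the lowest fold changes. They averaged 24.2 against 16.5 FPKM and 13.8 against 10.02 FPKM (limma adjusted p = 0.0695 and 0.0891). Lhx1 averaged 26.2 FPKM in controls and 20.7 FPKM in mutants, without overlap (limma adjusted p = 0.128, deposited DESeq2 adjusted p = 0.0414). Wnt4 went the other way without overlap, at 28.6 to 31.3 FPKM in controls and 33.1 to 37.5 FPKM in mutants (limma adjusted p = 0.181). The groups of Pax8, Jag1 and Cdh6 overlapped. In RNA from whole kidneys, fewer cells of a type and less RNA per cell cannot be told apart.

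Fgf1 (ENSMUSG00000036585.17) encodes acidic FGF, a ligand without a classical signal peptide that can bind all FGF receptors. It was measured at 2.55, 2.28 and 2.62 FPKM in controls, against 1.14, 1.77, 1.35 and 1.34 in mutant replicates 1 to 4. No mutant reached the lowest control, and mutant replicate 2 came closest. Fgf1 fell from 2.48 ± 0.18 to 1.40 ± 0.26 FPKM (SD, n = 3 and 4), a ratio of means of 0.565. The log2 fold change was -0.54 (SE 0.10, 95% interval -0.77 to -0.31, limma adjusted p = 0.0441), and the exact permutation p was 0.0286.

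The Fgf1 call was close to the threshold. It was lost without control replicates 1, 2 and 3 (adjusted p = 0.162, 0.160 and 0.125) and without mutant replicates 3 and 4 (0.0869 and 0.120). It was also lost with a pseudocount of 0.1 (0.0567) and with quantile normalization (0.0597), and kept in limma-voom (log2 fold change -0.85, adjusted p = 0.0261). The authors' deposited table gives -0.82 (SE 0.16, adjusted p = 5.8e-05), with 330 to 955 reads per library behind the values. Direction was the same in all 16 alternatives, and the call was made in 8 of them. Neurons also express Fgf1. The 3 neuronal and glial markers listed in the table summed to 3.13 to 7.38 FPKM in controls and 2.42 to 3.17 FPKM in mutants, so their groups overlapped. Without Elavl4 the other 2 summed to 5.26, 1.3 and 1.25 FPKM in control replicates 1 to 3 and 1.38 to 2.07 FPKM in mutants. Elavl4 fell (log2 fold change -0.55, SE 0.088, limma adjusted p = 0.0296). The part of neurons in the Fgf1 result was not tested.

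Fgf9 is made by nephron progenitors and the ureteric epithelium and, with Fgf20, keeps progenitors from being lost. It was measured at 1.51, 1.34 and 1.45 FPKM in controls, against 1.07, 1.06, 1.21 and 1.17 in mutants. The groups did not overlap, but by a narrow margin, between 1.21 and 1.34 FPKM. The log2 fold change of -0.19 (SE 0.077, 95% interval -0.37 to -0.02) did not pass (limma adjusted p = 0.302), nor did it in any of the 16 alternatives, where the adjusted p ran from 0.15 to 0.618. Fgf20 was measured at 1.36, 1.96 and 1.02 FPKM in controls, against 2.15, 1.81, 2.15 and 1.86 in mutants, with overlap (difference 0.31 on the log2 scale, SE 0.13, limma adjusted p = 0.335). The fold changes of this pair of progenitor ligands thus differed in sign, and neither passed.

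Fgf10 and Fgf7 are mesenchymal ligands that act on the epithelial form of FGFR2 in the ureteric tree. Fgf10 was measured at 2.34, 2.96 and 2.64 FPKM in controls, against 2.87, 4.00, 4.68 and 3.8 in mutants. Mutant replicate 1 lay below control replicate 2, and the other 3 mutants lay above all controls. The log2 fold change of 0.40 (SE 0.13, 95% interval 0.11 to 0.69) did not pass (limma adjusted p = 0.191, exact permutation p = 0.0857). It passed without mutant replicate 1 (log2 fold change 0.50, adjusted p = 0.0387), with array weights (0.0283) and in the authors' deposited table (log2 fold change 0.54, SE 0.17, adjusted p = 0.0373).

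Stromal markers are given beside Fgf10, a gene of the mesenchyme. Of 10 tested, 2 rose (Aldh1a2 and Cldn11), against 0.475% of all genes tested, and 8 did not pass. At an unadjusted limma p under 0.05 there were 6, against 13.7%. In 6 genes all mutants lay above all controls, against 5.93%, and 9 of the 10 fold changes were above 0, with a median of 0.40. The authors' deposited table has 5 higher, against 1.75%. The summed level of the 10 was 340 to 470 FPKM in controls and 494 to 609 FPKM in mutants, without overlap. Without Aldh1a2 the other 9 summed to 199.8 to 329.6 FPKM and 298 to 408 FPKM, with overlap. Control replicate 1 had the highest of these control sums. Its Col1a1 level was 128 FPKM, against 72.9 and 62.9 FPKM in control replicates 2 and 3 and 63.2 to 157 FPKM in mutants. Relative to the sum of all 10 markers, Fgf10 stood at 0.497%, 0.740% and 0.776% in controls and at 0.527%, 0.810%, 0.767% and 0.746% in mutants, and these ratios overlapped. Without Aldh1a2 in the sum they also overlapped, at 0.709% to 1.32% and 0.832% to 1.35%. Both ratios were chosen after their values were seen. Fgf7 was near the limit of detection, measured at 0.445, 0.211 and 0.112 FPKM in controls, against 0.303, 0.191, 0.414 and 0.210 in mutants. It rested on 15 to 101 reads per library and was not tested. The groups overlapped, the 3 controls spread widely (CV 66.7%), and the authors' deposited table gives a log2 fold change of 0.11 with an SE of 0.50.

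The order of the ligands by level differed between the groups. In controls it was Fgf8, Fgf10, Fgf1, Fgf9 and Fgf7, with Fgf10 above Fgf1 in only 2 of 3 libraries. In mutants Fgf10 had the highest mean, 3.84 FPKM against 3.16 FPKM for Fgf8, but exceeded Fgf8 in 2 of 4 libraries. The level of Fgf8 relative to that of Fgf10 was 2.93, 2.43 and 2.47 in controls and 1.41, 0.455, 0.581 and 1.06 in mutants. Those ratios, also chosen after their values were seen, did not overlap, and all mutants were below all controls.

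**Figure D2:**
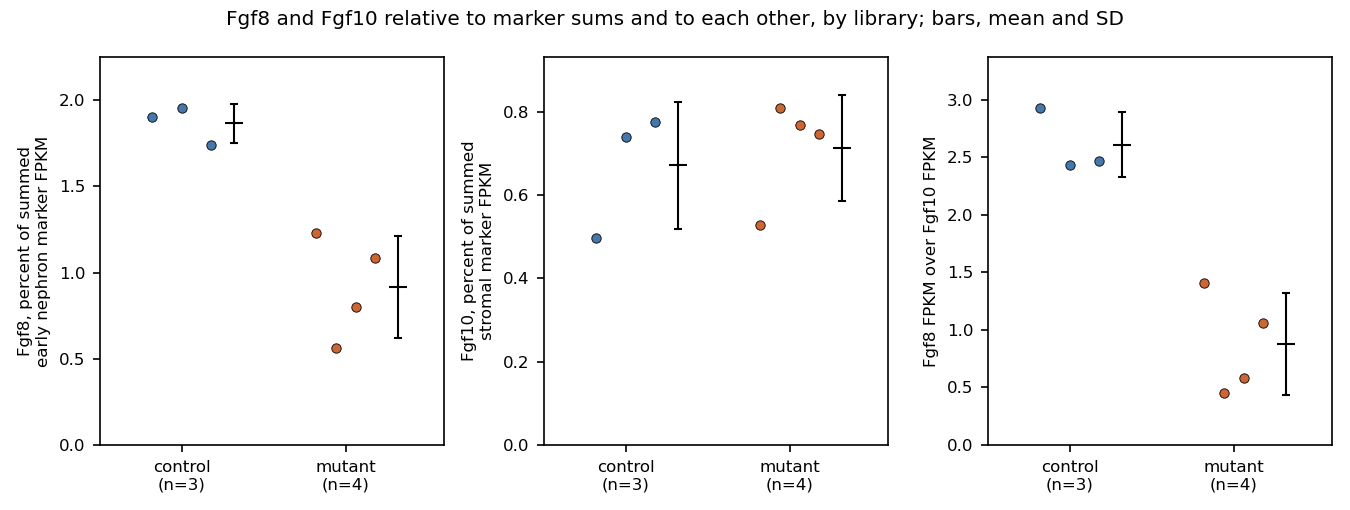
Fgf8 as a percentage of the summed FPKM of early nephron markers, Fgf10 as a percentage of the summed FPKM of stromal markers, and Fgf8 FPKM over Fgf10 FPKM; points are libraries (3 controls, 4 mutants), bars the mean and SD. The groups are apart in the left and right panels (1.74% to 1.96% against 0.561% to 1.23%, and 2.43 to 2.93 against 0.455 to 1.41) and overlap in the middle one.

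The make-up of the ligand pool was described by the share of each gene in the summed FPKM of the 5 ligands. That sum was 13.7 ± 0.32 FPKM in controls (SD, n = 3) and 9.81 ± 0.81 FPKM in mutants (SD, n = 4). Fgf8 made up 50.04%, 51.4% and 48.9% of it in controls and 42.8%, 20.6%, 26.2% and 38.2% in mutants. Fgf10 made up 17.1%, 21.2% and 19.8% in controls and 30.4%, 45.3%, 45.1% and 36.0% in mutants. Both shares were apart between the groups, in opposite directions. The shares of a library add up to the whole, so a lower share of one gene raises those of others. Their opposite directions are thus not separate results, and the Fgf10 level itself overlapped between the groups and did not pass. In the family of 5 shares, those of Fgf8, Fgf9 and Fgf10 each gave an exact permutation p of 0.0571, those of Fgf1 and Fgf7 0.200 and 0.286, unadjusted, so none passed. Computed on reads instead of FPKM, the Fgf10 share gave an exact permutation p of 0.0286. Reads are not scaled to gene length, so shares of reads are another quantity and not a check on the FPKM shares. Fgf1 held 12.1% to 20.1% and Fgf7 0.842% to 4.00% of the pool over all 7 libraries. The Fgf9 share was 9.59% to 11.01% in controls and 11.1% to 11.9% in mutants, a difference of 1.04 percentage points that reversed to -0.98 when reads replaced FPKM.

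**Figure D3:**
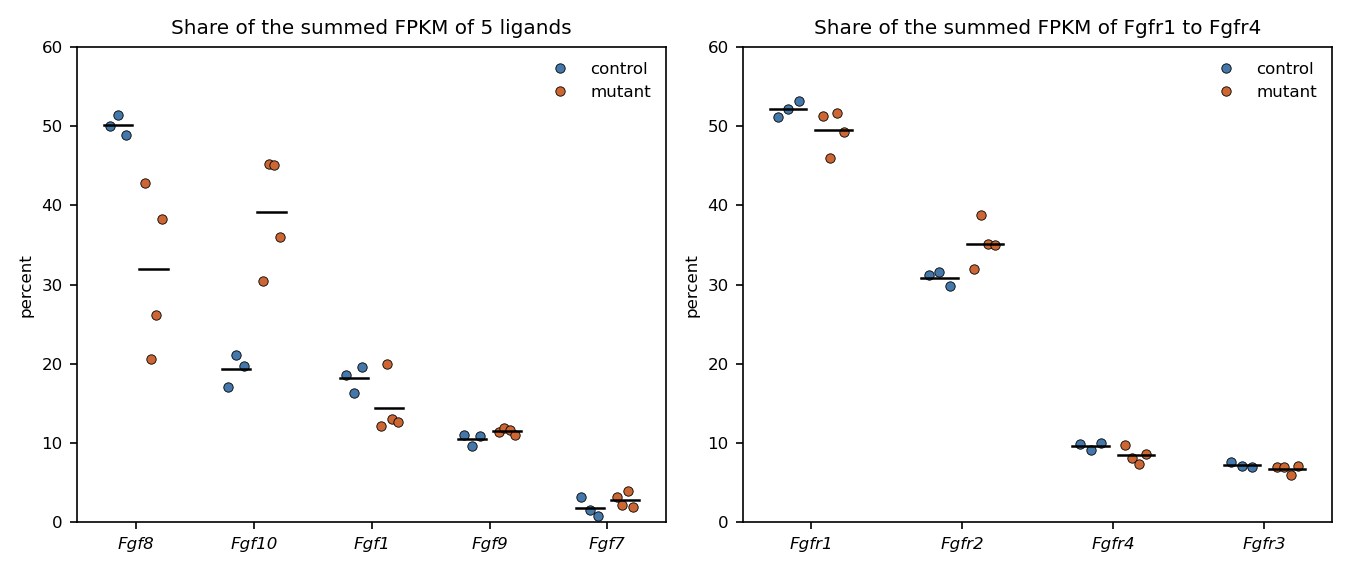
Share of each gene in the summed FPKM of the 5 ligands (left) and of the 4 kinase receptors (right), in percent; points are libraries, horizontal bars group means, ordered by the control mean. Fgf8 goes from a mean of 50.1% in controls to 31.96% in mutants and Fgf10 from 19.3% to 39.2%, while the shares of the receptors move by 4.34 percentage points or less. In each panel the shares of a library add up to the whole and are tied.

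The receptor genes were more abundant than the ligand genes and kept a single order. The margin was narrow in controls between Fgfr3, at 8.10 to 8.61 FPKM, and Fgf8, at 6.53 to 7.19 FPKM. In both groups the order by level was Fgfr1, Fgfr2, Fgfrl1, Fgfr4 and Fgfr3, and each receptor exceeded the next in every library of its group. Fgfr1, which serves nephron progenitors and the metanephric mesenchyme, was measured at 57.5, 58.9 and 63.3 FPKM in controls, against 49.6, 44.5, 54.6 and 49.2 in mutants. The groups did not overlap, with mutant replicate 3 closest to the controls. Its log2 fold change was -0.27 (SE 0.078, 95% interval -0.45 to -0.10), short of the threshold (limma adjusted p = 0.138, exact permutation p = 0.0571). The authors' deposited table gives -0.28 (SE 0.091, adjusted p = 0.045).

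Fgfr3 and Fgfr4 were the less abundant kinase receptors. Fgfr3 was measured at 8.61, 8.10 and 8.35 FPKM in controls, against 6.72, 6.81, 6.27 and 7.08 in mutants. No mutant came within 1 FPKM of the lowest control. The log2 fold change of -0.28 (SE 0.066, 95% interval -0.43 to -0.13) missed the threshold (limma adjusted p = 0.0842, exact permutation p = 0.0286). Fgfr4, the receptor that Fgf15 uses with beta-klotho in the liver, was measured at 11.2, 10.3 and 11.9 FPKM in controls, against 9.47, 7.87, 7.75 and 8.64 in mutants. Mutant replicate 1 was the highest mutant and still below the lowest control. Its log2 fold change was -0.36 (SE 0.085, 95% interval -0.56 to -0.17, limma adjusted p = 0.0814, exact permutation p = 0.0286). Both were lower in the authors' deposited table (adjusted p = 0.00607 for Fgfr3 and 0.00839 for Fgfr4), both missed the threshold in limma-voom (0.0592 and 0.0663), and Fgfr4 passed without mutant replicate 1 (0.0294).

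Markers of nephron cells are given beside the receptors. Of 6 tested proximal tubule markers 2 fell (against 1.05% of all genes tested) and 4 did not pass. The 7 listed summed to 76.6 to 93.2 FPKM in controls and 25.3 to 54.5 FPKM in mutants. For 7 podocyte markers 4 fell (against 1.05%) and 3 did not pass, with sums of 259 to 275 FPKM and 198 to 243 FPKM. All mutants lay below all controls for 6 (against 8.61% of all genes tested) and above for 1 (against 5.93%). Of the 7, 6 were lower by the deposited test (against 3.74% of all genes). For 10 nephron progenitor markers 3 fell (against 1.05%), 1 rose (against 0.475%) and 6 did not pass. Their sums were 182 to 199 FPKM and 146 to 165 FPKM. All mutants lay below all controls for 5 (against 8.61%) and above for 1 (against 5.93%). The deposited table has 3 of these 10 lower (against 3.74%) and 1 higher (against 1.75%). The sums of all 3 lists were apart between groups, also without the most abundant gene of each list (Hnf4a, Tcf21 and Six2). The part of these cells in the lower receptor and ligand levels was not tested.

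Fgfr2, the receptor that ureteric branching needs, did not differ detectably. It was measured at 35, 35.7 and 35.5 FPKM in controls, against 30.9, 37.6, 37.1 and 34.9 in mutants. Mutant replicates 2 and 3 were above all controls, and replicates 1 and 4 below. The log2 fold change was -0.02 (SE 0.076), with a 95% interval of -0.19 to 0.16 (limma adjusted p = 0.97), and 0.04 without mutant replicate 1. Fgfrl1, a receptor without a kinase domain that nephron formation needs, was measured at 20.1, 20.9 and 18.7 FPKM in controls, against 20.5, 19.1, 17.5 and 19.2 in mutants. Its groups overlapped, with a log2 fold change of -0.06 and a 95% interval of -0.22 to 0.10 (limma adjusted p = 0.837). The counting sums over isoforms, so epithelial and mesenchymal forms of Fgfr1 and Fgfr2 are not separated.

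The 4 kinase receptors together summed to 115 ± 3.68 FPKM in controls and 99.8 ± 4.27 FPKM in mutants. Fgfr1 made up 51.2% to 53.2% of the sum in controls and 46.0% to 51.7% in mutants, which overlapped. Fgfr2 made up 29.8% to 31.6% in controls and 31.9% to 38.8% in mutants, without overlap. These shares are tied in the same way, and the Fgfr2 level itself averaged 35.4 FPKM in controls and 35.1 FPKM in mutants. In the family of 4 shares the exact permutation p was 0.0571 for Fgfr2, 0.114 for Fgfr4 and 0.2 for both Fgfr1 and Fgfr3, unadjusted, so none passed.

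**Figure D4:**
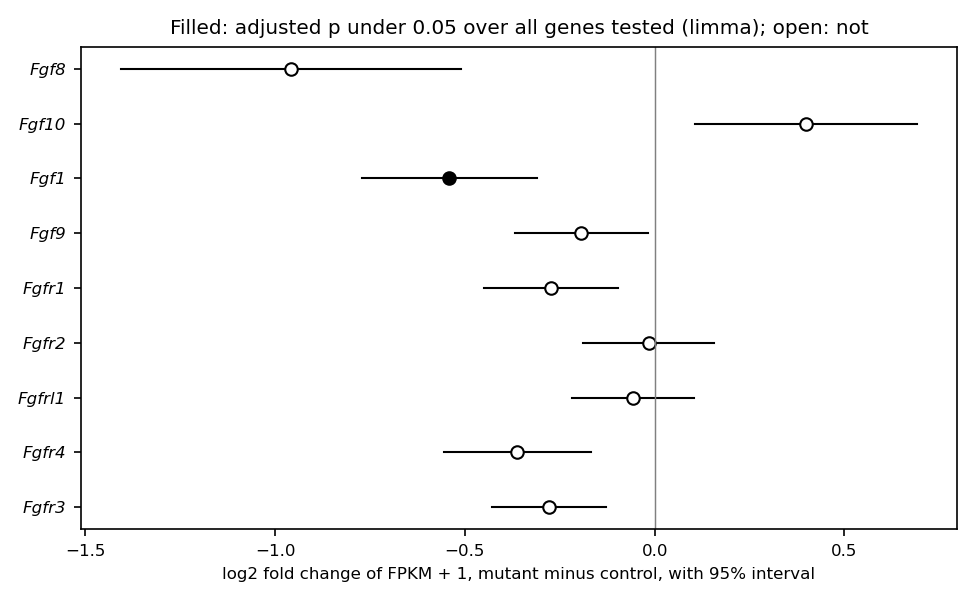
Log2 fold change of FPKM + 1, mutant minus control, for the 9 tested genes; circles are limma estimates, lines 95% intervals, and a filled circle marks an adjusted p under 0.05. Fgf1 alone is filled, the estimate for Fgf8 is the lowest at -0.96, Fgf10 is the single gene above 0, and the intervals of Fgfr2 and Fgfrl1 span 0.

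Genes of the extracellular side of the pathway held the other calls. Of 7 tested co-receptors and binding partners, 1 fell, 1 rose and 5 did not pass, against backgrounds of 1.05% and 0.475%; their median log2 fold change was -0.04. Kl encodes klotho, the co-receptor for the hormone Fgf23, made mainly in the distal tubule. It was measured at 3.68, 3.86 and 2.99 FPKM in controls, against 1.36, 0.998, 0.458 and 0.872 in mutants. The mutants were far below the controls, with replicate 3 the lowest. Kl fell by 1.25 on the log2 scale (SE 0.16, limma adjusted p = 0.0126), a ratio of means of 0.263. That call was lost without control replicate 1 or 2 (adjusted p = 0.0655 and 0.0814) or mutant replicate 4 (0.0508). The 4 markers of the loop and distal tubule summed to 36.1 to 45.5 FPKM in controls and 15.3 to 25.8 FPKM in mutants, also lowest in replicate 3. Mutant replicate 3 also had the highest share of Hbb-y relative to Hbb-bs, 10.5%. The part of these tubule cells and of embryo age in the Kl result was not tested. Neither beta-klotho, Klb, nor Fgf23 is listed in the table.

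Flrt3 encodes a leucine-rich repeat membrane protein that can bind FGF receptors. It was measured at 5.88, 5.63 and 5.86 FPKM in controls, against 7.02, 8.18, 7.93 and 7.86 in mutants, all mutants above all controls. Flrt3 rose by 0.36 on the log2 scale (SE 0.071, limma adjusted p = 0.0471), and it lost the call in 6 of 7 omissions of a library, with adjusted p from 0.0929 to 0.233. Without mutant replicate 1 the call was kept (0.0158). The heparan sulfate cofactors, which hold FGFs near their receptors, had 0 of 19 past the threshold by limma or limma-voom and 6 at an unadjusted limma p under 0.05 (13.7% of all genes tested), with a median of 0.02. In the authors' deposited table there were 3 lower and 1 higher, against 3.74% and 1.75% of all genes. Gpc1, a glypican, stood at 42.1 ± 0.76 FPKM in controls and 35.2 ± 1.34 FPKM in mutants (log2 fold change -0.25, SE 0.057, limma adjusted p = 0.0769). Gpc4, another glypican, stood at 28.2 ± 2.92 and 18.8 ± 3.79 FPKM (-0.58, SE 0.15, limma adjusted p = 0.115).

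Other FGF genes were few in these kidneys. Of the 13 other secreted ligands looked up, 5 were listed (Fgf2, Fgf3, Fgf15, Fgf18 and Fgf20) and 4 were tested. By limma, limma-voom or the deposited test 0 passed, while 2 had an unadjusted limma p under 0.05 (13.7% of all genes tested). Fgf2, basic FGF, was at 1.97 ± 0.17 FPKM in controls and 2.40 ± 0.16 FPKM in mutants, without overlap (log2 fold change 0.20, SE 0.081, limma adjusted p = 0.317). Of the 4 genes for intracellular FGF homologous factors, which bind sodium channels and not FGF receptors, Fgf11, Fgf12 and Fgf13 were listed. Fgf11 and Fgf13 were tested and had log2 fold changes of 0.18 and 0.28, neither past the threshold (limma adjusted p = 0.305 and 0.231, unadjusted 0.0348 and 0.0195, and 0 by limma-voom). In the authors' deposited table Fgf12 was higher (log2 fold change 0.51, SE 0.16, adjusted p = 0.026).

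Of 21 genes for adaptors and the RAS-ERK cascade, which relay FGF signals inside the cell, 0 passed by limma, limma-voom or the deposited test, and Map2k1, which encodes the ERK kinase MEK1, was the 1 with an unadjusted limma p under 0.05. Their fold changes lay between -0.18 and 0.09, with a median of -0.03. Of 12 tested ERK feedback and target genes, 0 passed by limma or limma-voom and 4 had an unadjusted limma p under 0.05 (13.7% of all genes tested), with a median of -0.11. Mutant replicate 1 had the lowest value of the 7 libraries for 7 of these 12 and for 9 of the 21 cascade genes, against 25% of all genes tested.

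Feedback genes differed among themselves. Spry4, a Sprouty inhibitor of RAS-ERK signalling, was measured at 8.81, 8.03 and 7.33 FPKM in controls, against 6.23, 6.59, 6.85 and 6.66 in mutants (log2 fold change -0.25, SE 0.076, limma adjusted p = 0.153). Its groups were apart, and the authors' deposited table has it lower (adjusted p = 0.0428). Etv4 was at 27.9 ± 0.36 FPKM in controls and 24.0 ± 1.09 FPKM in mutants, apart as well (-0.21, SE 0.059, limma adjusted p = 0.133). Its close relative Etv5 was at 26.6 ± 1.14 and 27.1 ± 2.73 FPKM, with overlap. Spry1, which restrains RET signalling in the ureteric bud, was at 35.4 ± 2.43 and 33.6 ± 2.29 FPKM. Dusp6, an ERK phosphatase induced by FGF, was at 31.2 ± 1.22 and 32.9 ± 0.47 FPKM, apart by a narrow margin, with a 95% interval of the log2 fold change from -0.05 to 0.20. The FGF antagonist gene Il17rd was measured at 6.49, 5.84 and 5.68 FPKM in controls, against 3.25, 4.71, 5.34 and 4.85 in mutants, lowest in mutant replicate 1 (-0.35, SE 0.13, limma adjusted p = 0.264).

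**Figure D5:**
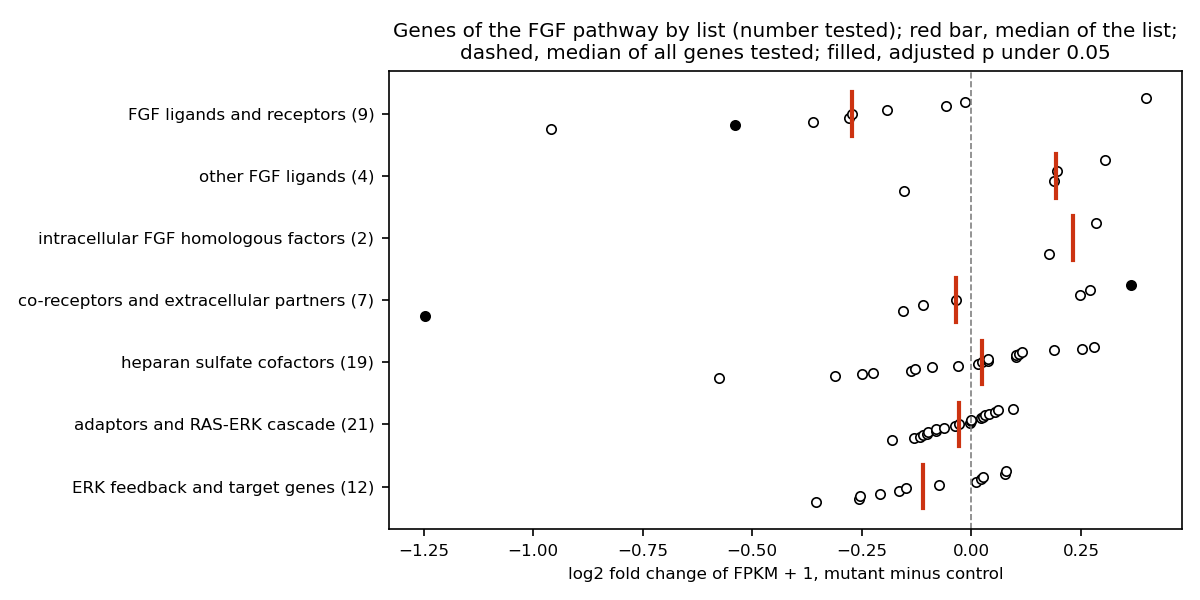
Log2 fold change of FPKM + 1, mutant minus control, of each tested gene in 7 lists of the FGF pathway; red bars are list medians, the dashed line the median of all genes tested, filled circles an adjusted p under 0.05. Only Fgf1, Kl and Flrt3 are filled, and the 21 adaptors and cascade genes lie between -0.18 and 0.09.

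Profiles across the 7 libraries were compared as log2(FPKM + 1) minus the control mean, by root mean square difference among the 13466 genes tested. Nearest to Fgf8 were Gm17092 (0.08), Particl (0.10) and H2ac15 (0.10). Like Fgf8, these 3 had their lowest value in mutant replicate 2, which the choice by nearness favours. H2ac15 rested on 1 to 47 reads per library. Nearest to Fgf1 were Elavl4 (0.06), which encodes a neuronal RNA-binding protein, Col13a1 (0.09), a transmembrane collagen, and Rbm20 (0.09), a splicing factor.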

How the data were processed

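RNA-seq of 3 control and 4 mutant whole-kidney libraries was used, grouped by the sample titles. The authors ran FastQC 0.11.5 and Trim Galore 0.5.0 on the reads, used STAR 2.6.0c and HTSeq 0.6.1p2, and compared groups in DESeq2, with mm39 (GRCm39) as genome, all by the submitters' processing notes. Whether counting used strand is not given in the sources used here, so reads of overlapping antisense genes cannot be told apart. The authors deposited FPKM per library, a mean of normalized counts (a signal from counts and size factors), log2 fold changes with errors, a test statistic (a score, fold change over its error) and p-values. The deposited values for 16167 genes were copied, and the lowest deposited mean count was 18.5. FPKM ratios matched the deposited fold changes (99th percentile of the absolute log2 difference 0.0022 for well-counted genes), so the FPKM carry the same size factors.

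Reads per library were recovered from mean count, FPKM and a fitted size factor, with 100% of values within 0.05 of a whole number. Testing was kept to the 13466 genes with 3 or more libraries at 1 FPKM or higher (2701 left out). The test was limma 3.58.1 under R 4.3.3, applied to log2(FPKM + 1) values. Its empirical Bayes step was both trended and robust, p-values were two-sided with Benjamini-Hochberg adjustment over all tested genes, and calls were made at 0.05. Single values used the exact permutation test over 35 splits. Alternatives were no filter, a filter at 5 FPKM, a pseudocount of 0.1, quantile and median-of-ratios scaling, array weights, no trend or robust steps, a replicate block, limma-voom, the deposited adjusted p and omission of each library with the genes tested kept. As a check of the code only, the limma fit was also run on simulated counts. These had no library effects beyond depth, so that run does not show how calls behave in these data. Summaries were made in Python 3.11.15 with pandas 2.3.3.

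The members and lists were chosen with earlier results of these data known. Named were all 10 genes, up to 4 changed genes of each of 6 pathway lists or the 2 with the smallest p, marker genes, and the 3 profiles nearest to Fgf8 and to each changed member. Marker lists are given by counts and summed levels. Etv5, Spry1, Dusp6, Il17rd, Fgf12, Lfng, Dll1 and Col1a1 were named after their values were seen.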

Additional observations from a re-analysis of the deposited data

Results flagged for a closer look

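Values were checked for a mutant library far from the other 3, and chance picks out about 1 in 20 groups of 4; of 73 values checked, 4 were picked out. Fgf1 made up 20.1% of the ligand pool in mutant replicate 2, against 12.1% to 13.0% in the other mutants. Fgfr3 made up 5.93% of the kinase receptors in mutant replicate 3, against 6.95% to 7.09%. The immune marker Ptprc was at 2.99 FPKM in mutant replicate 2, against 2.21 to 2.31 FPKM. The adrenocorticotropic hormone receptor gene Mc2r was at 1.53 FPKM in mutant replicate 2, against 1.97 to 2.02 FPKM.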

How the results depend on the processing

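For the FGF genes, 127 of 150 alternative values kept direction and side of the threshold, 8 lost a call, 14 gained one and 1 reversed; for the other named genes 714 did so, 139 lost a call, 15 gained one and 12 reversed. Of 206 genes called in all, 60 were called at a minimum of 5 FPKM (31 higher and 29 lower, against 64 and 142), 1302 with array weights, 109 with a pseudocount of 0.1, 886 by the authors' deposited table and 15 to 481 with a library omitted. Of the FGF genes, against 1, there were 0 at 5 FPKM (where Fgf1 is not tested), with a pseudocount of 0.1 and with quantile normalization, 2 in limma-voom, 6 with array weights, 6 in the deposited table and 0 to 4 with a library omitted. Of the co-receptors, against 2, there were 0 at 5 FPKM, 1 with a pseudocount of 0.1 and 0 to 2 with a library omitted. Of the heparan sulfate cofactors, against 0, there were 6 with array weights, 4 in the deposited table and 0 to 1 with a library omitted. The ERK feedback genes gave 2 with array weights and 1 in the deposited table, and the intracellular factors 1 in the deposited table. Except where fewer genes or samples entered, the cause was not tested.

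The log2 fold change of Fgfr2 ran from -0.0482 to 0.0437 with a library omitted. Irx5 ran from -0.12 to 0.11, and was 0.0578 with array weights, 0.0311 with quantile normalization and 0.0290 in the deposited table, against -0.01. Hbb-bs ran from -0.0483 to 0.45 and was -0.0903 with array weights. Hbb-bt ran from -0.20 to 0.37 and was -0.26 with array weights. On reads, which are not scaled to gene length, the difference in ligand share was -0.98 percentage points for Fgf9, turned from 1.04 on FPKM. For Fgf10 it was 20.4 on reads (exact permutation p = 0.0286).

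Control and mutant replicate numbers share no stated origin, and libraries with the same number did not deviate together (r = -0.156, 0.028 and 0.098). A fit with the replicate number as a block called 2 genes in all, 0 FGF genes and 0 co-receptors. Fgf7 rested on the fewest reads of the FGF genes, 15 to 101 per library.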

Other observations

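Markers of cell types outside the nephron were also looked up. Of 5 endothelial markers 0 passed by limma (1 at an unadjusted p under 0.05, against 13.7% of all genes tested, 0 by limma-voom), with summed levels of 95.03 to 103 FPKM in controls and 99.98 to 112 FPKM in mutants. Of 5 immune markers 0 passed (4 at an unadjusted p under 0.05, 0 by limma-voom), with sums of 13.5 to 14.9 FPKM and 17.7 to 19.6 FPKM. Of 9 ureteric markers 1 rose (against 0.475% of all genes tested), Calb1, the gene of calbindin, with sums of 170 to 184 FPKM and 202 to 207 FPKM. Without Calb1 the other 8 summed to 131 to 137 FPKM and 128 to 141 FPKM, with overlap. The authors' deposited table has 4 of the 9 higher and 2 lower, against 1.75% and 3.74% of all genes. Blood and liver genes varied within both groups: 5 erythroid genes summed to 2994 to 5974 FPKM in controls and 3538 to 6212 FPKM in mutants, and 4 liver genes to 23.4 to 27.4 FPKM and 11.4 to 42.5 FPKM.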
